A study of Mus musculus with 2 samples.

Results

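The transcripts described here encode 10 proteins that add or remove N6-methyladenosine (m6A) in RNA, out of 54713 rows in the deposited table of all genes. They were chosen by gene symbol, without a rule on their values but with earlier results of these data known, and each matched 1 row. They comprise 7 subunits of the METTL3 methyltransferase complex (Mettl3, Mettl14, Wtap, Zc3h13, Rbm15, Rbm15b and Cbll1), the separate methyltransferase Mettl16, and the demethylases Fto and Alkbh5. RNA came from SV40 MES13, an immortalised mouse kidney line that the labels call mesangial. One subline carried a lentivirus for the long noncoding RNA AI662270 (genotype label: lncRNA AI662270 overexpression) and the other a control lentivirus (genotype label: WT). Both were selected as stable lines with 0.5 mg/ml puromycin, kept in 0.25 mg/ml puromycin with 10% serum, and are otherwise labelled untreated. The labels do not say whether a stable line is a clone or a pool, and each group is 1 library. No difference below therefore has a replicate check, and every comparison is between 2 libraries, not between 2 conditions.

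m6A is the most common internal modification of messenger RNA. METTL3 transfers the methyl group from S-adenosylmethionine, METTL14 holds the RNA substrate and is itself inactive, and WTAP anchors the pair in nuclear speckles together with VIRMA, ZC3H13, CBLL1 (HAKAI) and the RNA-binding proteins RBM15 and RBM15B. METTL16 works alone on structured sites, and FTO and ALKBH5 are iron- and oxoglutarate-dependent dioxygenases that take the methyl group off. The measurements are transcript levels of these enzymes. They say nothing of protein, of enzyme activity or of m6A itself, which was not measured in these libraries.

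The control library held 15727023 counts and the AI662270 library 15062482. AI662270 itself was at 0 with the control virus, where 0 allows up to 3 counts, and at 241 counts in the library labelled with it. The label protocol names Sox9 as the transcript checked by PCR, and Sox9 was at 234 and 97 counts, control first, as in every pair of values below. Of 12 mesangial markers, 6 reached a mean of 1 CPM (CPM being counts scaled to library size), while Itga8 and Thy1 had 0 counts in both libraries. The summed level of these 12 markers was 312 CPM and 643 CPM, most of it Vim, at 221 and 569 CPM. By the 2-fold size rule given below, Vim and Acta2 were called higher, with ratios of 2.58 and 13.9, and Gata3 and Fhl2 lower, with ratios of 0.321 and 0.488. Of 8 tubular epithelial markers, 3 were measured (Lrp2, Cdh16 and Epcam), with summed levels of 556 and 435 CPM, and Slc34a1, Umod and Aqp2 had 0 counts. Of 6 podocyte markers 3 were measured (summed 153 and 84.1 CPM, Nphs1 at 0). None of 6 endothelial markers was measured (summed 0.592 and 1.41 CPM, Tek, Emcn and Tie1 at 0), and 1 of 6 leukocyte markers was (summed 6.84 and 4.94 CPM, Adgre1, Cd3e and Itgam at 0). The part of these marker differences in the values below was not tested. In bulk RNA, fewer cells of a type and less RNA per cell cannot be told apart.

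None of the 10 transcripts differed 2-fold between the libraries. A gene was called when its log2 ratio of CPM plus 0.5, AI662270 library over control, was at least 1 in either direction and the 95% exact counting interval of the ratio left out 1. By this rule 0 of 10 members were higher and 0 lower, beside 5.59% of 13268 measured genes (mean of at least 1 CPM) called higher, 5.72% called lower and 11.3% called in either direction. Among the 7710 measured genes whose mean CPM lay within the range of the members (20.1 to 309 CPM), 6.45% were called. All 10 members were measured. Their median log2 ratio was -0.04, with members from -0.68 to 0.27, and the median over all measured genes was -0.02. In the authors' deposited table none of the 10 has an adjusted p-value under 0.05, beside 897 genes, or 4.34% of those tested there, that do. That table rests on the same 2 libraries.

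Differences smaller than 2-fold were still larger than counting error for 6 of the 10. The counting interval lay below 1 for Mettl3, Mettl14 and Wtap, and above 1 for Rbm15b, Fto and Alkbh5. It held 1 for Zc3h13, Rbm15, Cbll1 and Mettl16. At this depth such an interval is common: it lay below 1 for 35.8% of all measured genes and above 1 for 31.9%, so that it left out 1 for 67.7%. Among the 7710 genes in the members' range of mean CPM, it lay below 1 for 44.2%, above 1 for 31.6% and on either side for 75.8%. Set against these shares, 3 of 10 members each way is no result about the members. The interval covers counting error only, and the spread between cultures is not known here.

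**Figure D1:**
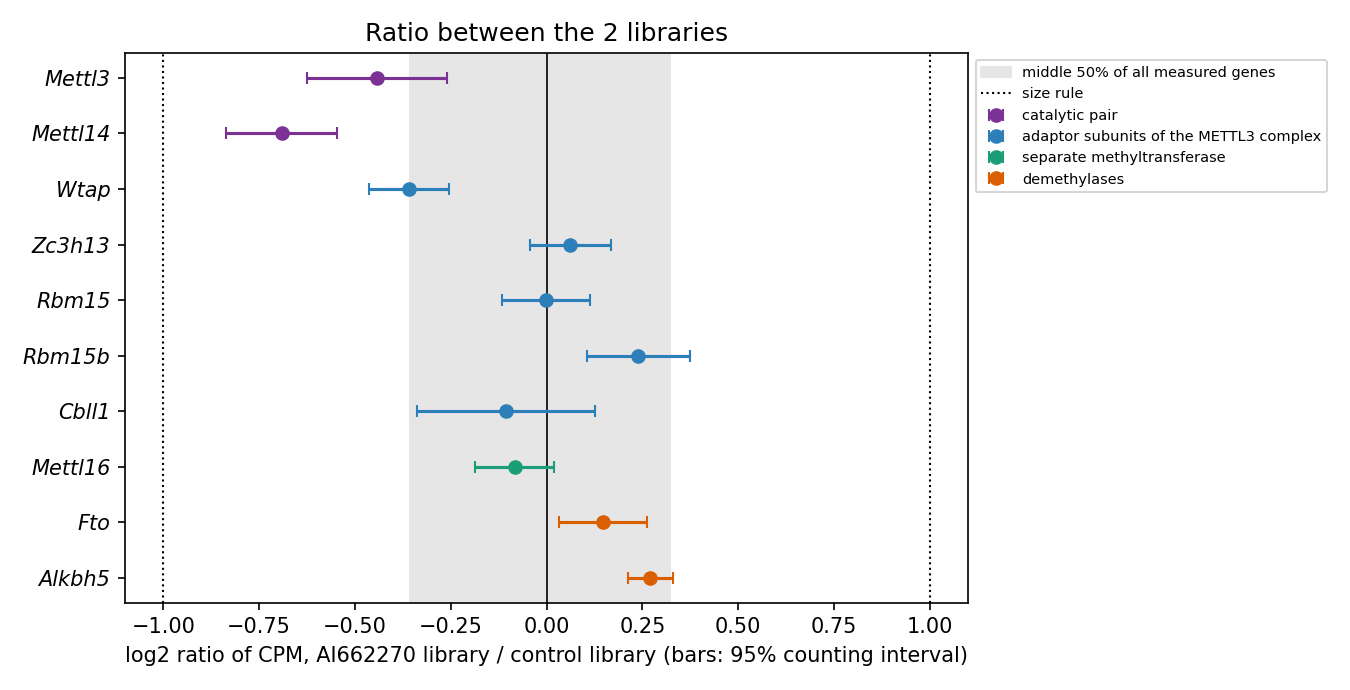
Log2 ratio of CPM (x axis, AI662270 library over control library) of the 10 transcripts, 1 library each, with 95% exact counting intervals as bars, the middle 50% of all measured genes in grey and the 2-fold size rule dotted. Mettl14 and Mettl3 lie left of the grey band, Wtap lies at its edge, the other 7 lie inside it, and no point reaches a dotted line.

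The catalytic pair had the lowest ratios of the set, although Mettl3 did not differ from Wtap beyond counting error. Mettl14 (ENSMUSG00000028114, chromosome 3, 123368297 to 123386108, minus strand, mm10) had 1003 counts with the control virus and 637 with AI662270, or 65.97 and 40.9 CPM. Its ratio was 0.620 (0.560 to 0.685) and its log2 ratio -0.68, at percentile 11.4 of all measured genes. Mettl3 (ENSMUSG00000022160, chromosome 14, 52294841 to 52305128, minus strand) had 578 and 436 counts, or 38.02 and 27.98 CPM. Its ratio was 0.736 (0.648 to 0.835) and its log2 ratio -0.44, at percentile 20.9. Both genes were therefore lower in the AI662270 library than in the control by more than counting error and by less than the size rule. Under a size rule of 1.5-fold, Mettl14 was called lower and no other member was called, beside 14.3% of measured genes called lower and 12.9% called higher.

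Mettl3 and Mettl14 form a heterodimer, so their proportion within a library was compared as well, which needs no scaling between libraries. Mettl3 had 0.576 counts per count of Mettl14 under the control virus (0.519 to 0.639) and 0.684 under AI662270 (0.605 to 0.774). The proportion was 1.19 times as high in the AI662270 library, with an exact conditional interval of 1.01 to 1.397. Wtap had 1.67 counts per count of Mettl14 under the control virus and 2.10 under AI662270, a proportion 1.26 times as high (1.11 to 1.43). Wtap against Mettl3 went from 2.89 to 3.07, and the interval of that change, 0.915 to 1.23, held 1. By these counts Mettl14 was the lowest of the 3 relative to the control, and Mettl3 and Wtap could not be told apart at this depth. Mettl3 shares exonic bases with Tox4, described next, and the part of such reads in its proportions was not tested.

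Mettl3 overlaps its neighbour Tox4, a gene of the opposite strand. The overlap takes in 933 exonic bases, 18.4% of the exonic length of Mettl3. Tox4 had 1379 and 2035 counts, a ratio of 1.44 (1.34 to 1.54), on the other side of 1 from Mettl3. No label or header states whether counting used strand, so reads in the shared bases cannot be told apart, and how far they enter either count was not tested. No annotated gene overlaps Mettl14 or Wtap.

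Of the 5 adaptor subunits, Wtap was the one whose interval lay below 1. Wtap (ENSMUSG00000060475, chromosome 17, 12966796 to 12994169, minus strand) had 1673 and 1337 counts, or 110 and 85.8 CPM, and a ratio of 0.780 (0.725 to 0.838). Zc3h13, the zinc finger subunit that keeps the complex in the nucleus (chromosome 14, 75284373 to 75344426, plus strand), had 1421 and 1520 counts and a ratio of 1.04 (0.970 to 1.12). Cbll1, the E3 ubiquitin ligase subunit HAKAI (chromosome 12, 31484829 to 31499616, minus strand), had the fewest reads of the set, 316 and 301, and a ratio of 0.929 (0.791 to 1.09). The 2 values of each of these last genes do not differ beyond counting error. Virma, the scaffold subunit, which was read beside the 10, had 1740 and 1775 counts and a ratio of 0.995 (0.931 to 1.06).

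Rbm15 and Rbm15b are paralogs that bind U-rich RNA and recruit the complex to it, among other places on Xist. Rbm15 (chromosome 3, 107325421 to 107333673, minus strand) had 1217 and 1245 counts, 80.05 and 79.9 CPM, and the ratio nearest to 1 of the 10, 0.998 (0.922 to 1.08). Its log2 ratio of -0.003 became 0.095 with total counts, 0.033 with DESeq2 size factors, 0.066 with upper quartiles and 0.031 on deposited FPKM. The other settings kept the scaling used here, or nearly so, and left it just below 0. Its sign therefore depends on the scaling. Rbm15b (chromosome 9, 106880918 to 106887428, minus strand) had 828 and 1001 counts, 54.5 and 64.2 CPM, and a ratio of 1.18 (1.07 to 1.29). All exonic bases of Rbm15b form 1 block inside the span of Manf on the same strand, sharing 14 exonic bases with it, and it shares 75 exonic bases with Dcaf1 on the opposite strand. Manf, which encodes a stress-induced protein of the endoplasmic reticulum, had 743 and 1551 counts and was called higher, with a ratio of 2.04 (1.87 to 2.23). Its log2 ratio was 1.02, and 0.997 with a pseudocount of 2 CPM, which ends that call. Dcaf1 had 1741 and 1528 counts, a ratio of 0.856 (0.799 to 0.918). The share of Rbm15b reads that come from unspliced Manf transcripts was not tested.

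Mettl16 (ENSMUSG00000010554, chromosome 11, 74770830 to 74828525, plus strand) had 1555 and 1504 counts, 102 and 96.5 CPM. The ratio was 0.944 (0.879 to 1.01) and the log2 ratio -0.08, so the libraries did not differ beyond counting error. The log2 ratio was 0.01 when libraries were scaled by total counts. METTL16 methylates U6 small nuclear RNA and hairpins in the 3′ untranslated region of Mat2a, which encodes the methionine adenosyltransferase that makes S-adenosylmethionine. These hairpins carry the nonamer TACAGAGAA or TACAGAAAA, written as DNA. The Mat2a sites are shown because they are the known messenger RNA target of a member and lie in a gene measured here. In the GENCODE M21 transcripts, 6 such nonamers lie in the 3′ untranslated region of Mat2a (chromosome 6, minus strand, mm10). Each is given 5′ to 3′ with 10 bases on either side and the nonamer in capitals:
Mat2a site at chr6:72434235-72434263: tggcgtaggtTACAGAGAAgccttcaagc
Mat2a site at chr6:72433451-72433479: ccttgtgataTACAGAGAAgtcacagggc
Mat2a site at chr6:72433272-72433300: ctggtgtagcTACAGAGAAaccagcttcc
Mat2a site at chr6:72433157-72433185: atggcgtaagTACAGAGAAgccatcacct
Mat2a site at chr6:72433046-72433074: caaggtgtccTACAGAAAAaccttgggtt
Mat2a site at chr6:72432938-72432966: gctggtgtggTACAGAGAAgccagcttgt
Of 21020 genes with an annotated 3′ untranslated region, 4.52% hold at least 1 of the nonamers on the sense strand, and 1 gene, Mat2a itself, holds as many as 6. Mat2a had 1796 and 2603 counts, 118 and 167 CPM, and a ratio of 1.41 (1.33 to 1.503). Mat2a was not called. Its interval lay above 1, as did that of 31.9% of all measured genes, whereas the interval of Mettl16 held 1. A relation between the 2 genes was not tested.

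Both demethylases had ratios above 1. Alkbh5 (ENSMUSG00000042650, chromosome 11, 60536381 to 60558512, plus strand) had the most reads of the set, 4252 and 5257 counts, or 279.7 and 337 CPM. Its ratio was 1.21 (1.16 to 1.26) and its log2 ratio 0.27, at percentile 71.7 of all measured genes. Fto (ENSMUSG00000055932, chromosome 8, 91313525 to 91668439, plus strand) had 1165 and 1321 counts, or 76.6 and 84.8 CPM. Its ratio was 1.11 (1.02 to 1.20) and its log2 ratio 0.14, at percentile 62.9. Fto had 0.274 counts per count of Alkbh5 with the control virus and 0.251 with AI662270. That proportion was 0.917 times as high in the AI662270 library, and its interval, 0.839 to 1.003, held 1. Annotation places 8 loci without coding evidence or antisense to Fto over its span, and each had at most 5 counts in either library.

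Fto starts 262 bases from the ciliary gene Rpgrip1l, which runs the other way. Rpgrip1l had 446 and 524 counts, a ratio of 1.15 (1.01 to 1.30), beside 1.11 for Fto. The intervals of both genes at this shared start region lay above 1, as did those of 31.9% of all measured genes.

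Upstream sequences were read for the members that had a window, and Mettl14 had none. RefSeq windows of the 250 bases before a gene start (build GRCm38.p6, the same assembly as mm10) were given for 9 of the 10: Mettl3, Mettl16, Wtap, Zc3h13, Rbm15, Rbm15b, Cbll1, Fto and Alkbh5. The windows of 3 are printed, without bases that lie in annotated exons. Mettl3 is shown as the catalytic subunit, Alkbh5 as the most abundant transcript, and Fto because its window lies wholly between Fto and Rpgrip1l. Each runs 5′ to 3′ on the strand of the gene, and capitals mark matches to the motifs named below:
Mettl3 at chr14:52305129-52305374, minus strand: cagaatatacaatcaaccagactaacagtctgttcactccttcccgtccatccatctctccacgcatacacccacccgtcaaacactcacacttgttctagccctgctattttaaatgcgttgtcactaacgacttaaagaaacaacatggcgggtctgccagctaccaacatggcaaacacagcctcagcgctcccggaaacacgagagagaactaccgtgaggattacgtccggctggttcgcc
Alkbh5 at chr11:60537433-60537682, plus strand: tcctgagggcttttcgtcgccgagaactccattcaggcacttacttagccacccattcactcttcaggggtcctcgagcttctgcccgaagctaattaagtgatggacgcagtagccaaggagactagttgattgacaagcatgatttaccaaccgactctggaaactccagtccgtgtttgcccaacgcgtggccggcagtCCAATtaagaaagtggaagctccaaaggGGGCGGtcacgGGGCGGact
Fto at chr8:91313275-91313524, plus strand: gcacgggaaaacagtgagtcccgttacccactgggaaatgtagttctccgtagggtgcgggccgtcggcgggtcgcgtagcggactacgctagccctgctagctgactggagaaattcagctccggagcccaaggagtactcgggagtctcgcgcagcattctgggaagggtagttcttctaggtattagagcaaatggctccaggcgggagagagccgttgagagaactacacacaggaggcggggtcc
The motifs were searched on both strands in the whole window of the first listed start of each member, and overlapping matches were allowed. The GC box (GGGCGG) was in 5 of the 9 members' windows and in 32.7% of 32851 windows of all genes. The CCAAT box (CCAAT) was in 4 of 9 and in 33.8%. The ETS motif (CCGGAAG) and the E-box (CACGTG) were each in 1 of 9, and in 6.91% and 6.02% of all windows. The TATA box (TATAAA) and the cyclic AMP response element (TGACGTCA) were in none of the 9, and in 12.4% and 1.55% of all windows. The window of Alkbh5 holds a CCAAT box and 2 GC boxes. It lies within an intron of a longer annotated Alkbh5 transcript. The printed stretches of Mettl3 and Fto hold none of the 6 motifs.

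Levels of different genes were compared as CPM per kilobase of exon. Alkbh5 stood highest in both libraries, at 46.7 and 56.4. Wtap stood at 17.6 and 13.7, and Zc3h13 stood at 14.9 and 15.5, so these neighbours in the order changed places, and in each library they differed beyond their counting intervals. Rbm15 came next in both libraries at 10.8. In the control library Mettl14, at 8.89, and Rbm15b, at 8.36, could not be told apart, nor could Mettl3, at 7.49, and Mettl16, at 7.40. In the AI662270 library Mettl3 and Mettl14 both stood at 5.51, and neither they nor Cbll1, at 4.82, the lowest of the set, differed from the next in order. Fto stood at 5.88 and 6.51.

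These levels rest on the deposited gene length, which for all 10 equals the union of every annotated exon. Where a gene has long rarely used exons, that length makes the level per kilobase low. With the length of the longest consensus coding transcript instead, a choice made after the data were seen, Fto stood at 21.5 and 23.8. Mettl14 then stood at 24.1 and 14.9, and Mettl3 at 18.8 and 13.8. Wtap stood at 34.5 and 26.9, above Zc3h13 in both libraries, at 15.2 and 15.9, so with this length the pair did not change places. Alkbh5 stayed highest, at 48.8 and 58.9, and Cbll1 lowest, at 5.33 and 4.95. The order of the genes between these ends is therefore set in part by the length chosen, whereas ratios between libraries do not use the length.

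**Figure D2:**
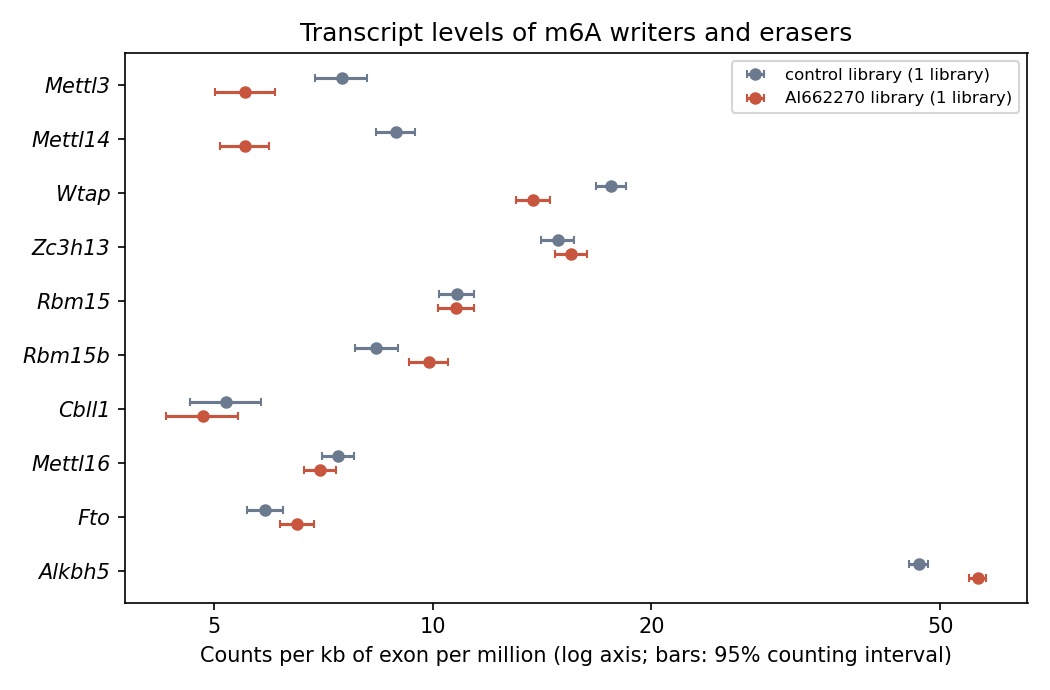
CPM per kilobase of exon (log axis) of the 10 transcripts in the control library (grey) and the AI662270 library (red), 1 library each, with 95% exact counting intervals as bars and the deposited gene length. Alkbh5 stands apart at 46.7 and 56.4, and Mettl3 and Mettl14 meet at 5.51 in the AI662270 library.

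Summed over members, the catalytic pair took 104 and 68.9 CPM, a ratio of 0.662. All 7 complex subunits together took 463 and 416 CPM, a ratio of 0.898. The 2 demethylases took 356 and 422 CPM, a ratio of 1.18, and most of that sum is Alkbh5. These sums describe the 2 libraries, and they weigh abundant members most.

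**Figure D3:**
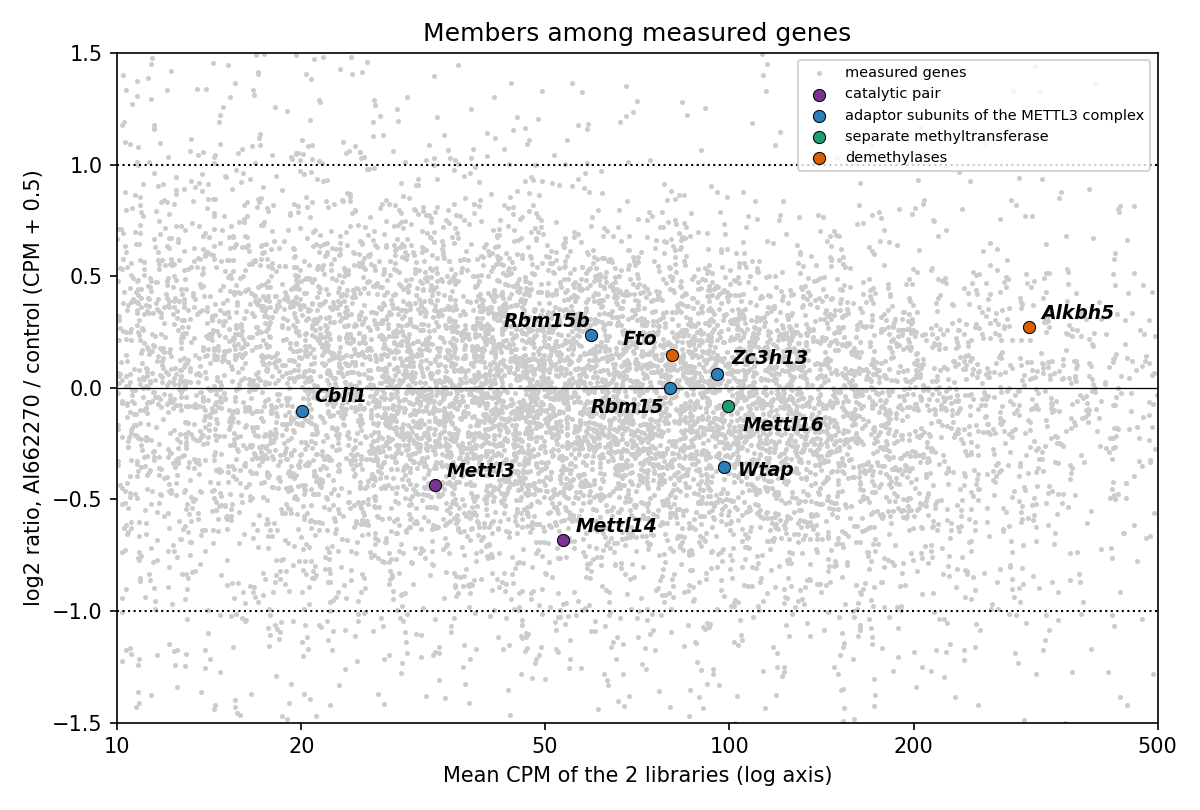
Log2 ratio of CPM plus 0.5 (y axis, AI662270 library over control library) against mean CPM of the 2 libraries (log x axis) for the 10 transcripts, coloured by role, and in grey for the measured genes that lie in the drawn range. Members lie within the cloud of genes of like abundance, from -0.68 for Mettl14 to 0.27 for Alkbh5, between the dotted lines of the size rule.

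Sublines of an immortalised line can differ in chromosome copies, so each member was set beside the measured genes that start within 2 Mb of it. Around Mettl14, 21 such genes had a median log2 ratio of -0.33, and 4 of them were called lower and 0 higher, beside 5.72% of all measured genes called lower and 5.59% higher. Of the 27 genes around Mettl3, 4 were called higher and 1 lower. Of the 44 around Rbm15, 1 was called higher and 4 lower, and of the 76 around Rbm15b, 6 were called higher and 3 lower. Mettl14 itself lay 0.36 below the median of its neighbours. Around Mettl3, 27 genes had a median of 0.02, and Mettl3 was below the middle 50% of them, which ran from -0.09 to 0.44. Around Wtap, 15 genes had a median of 0.05, and Wtap lay just under their middle 50%. Alkbh5 lay above the middle 50% of its 63 neighbours, whose median was -0.06. The 7 other members, Mettl14 among them, lay within the middle 50% of their neighbours. Cbll1 is on chromosome 12, whose 476 other measured genes had a median of -0.35. The 20 genes within 2 Mb of Cbll1 had a median of 0.01, and Cbll1 itself stood at -0.10. The part of copy number in these values was not tested.

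**Figure D4:**
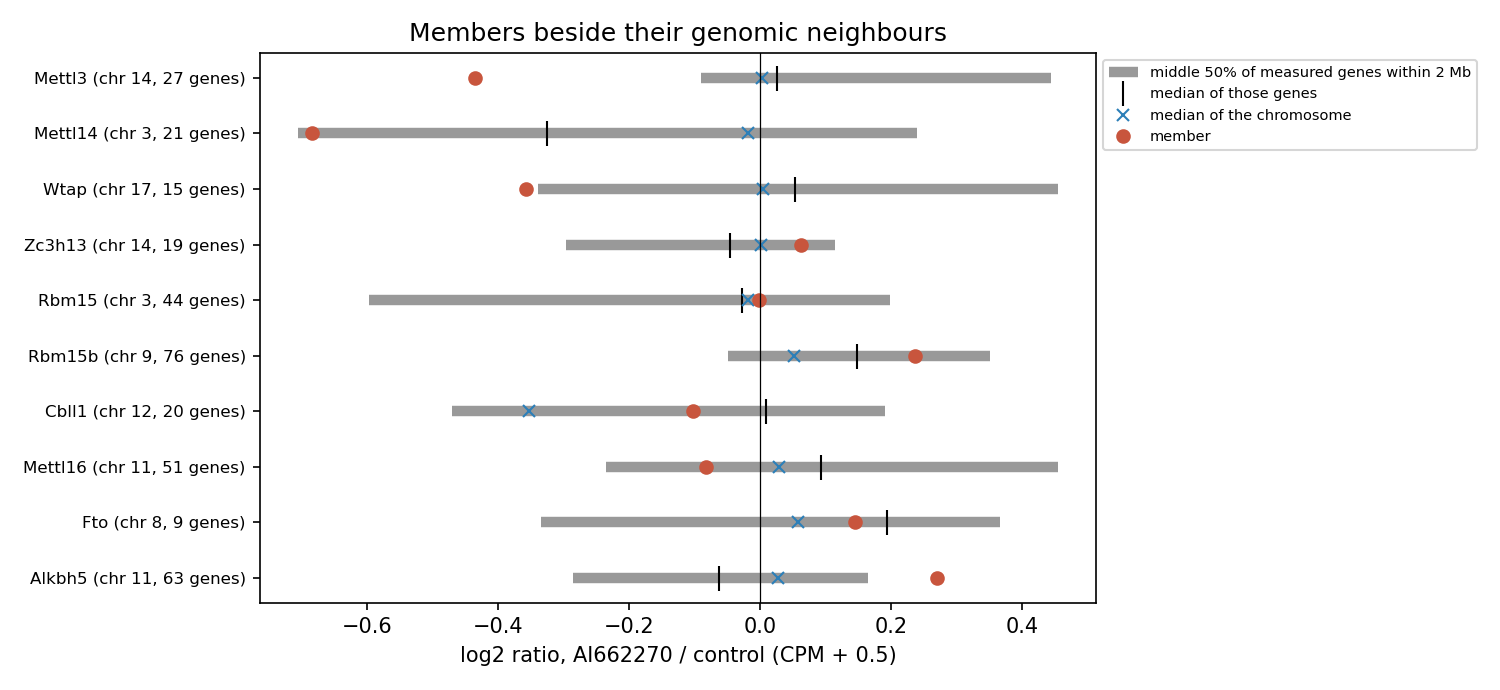
Log2 ratio (x axis, AI662270 library over control library, CPM plus 0.5) of each member (red point), beside the middle 50% (grey bar) and median (black tick) of measured genes starting within 2 Mb and the median of its chromosome (blue cross). Mettl3 and Wtap lie left of their grey bars, Alkbh5 lies right of its bar, and Mettl14 lies near the left end of a bar that itself is shifted to the left.

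Other genes of the pathway were read from lists chosen by function. Among 12 m6A readers, proteins that bind methylated RNA, 0 were called. Their median log2 ratio was -0.05, with readers from -0.75 to 0.42. Of all measured genes 11.3% were called, a share to set beside each list here. The counting interval lay below 1 for 5 of them and above 1 for 2, beside 35.8% and 31.9% of all measured genes. The most abundant were Prrc2a, with 14704 and 12482 counts and a ratio of 0.828 (0.809 to 0.848), and Hnrnpa2b1, with 9553 and 13094 counts and a ratio of 1.34 (1.30 to 1.37). Among 5 other RNA adenosine methyltransferases and partners, 0 were called, with a median of -0.08. The interval lay below 1 for 2 and above 1 for 2. Pcif1, which methylates the cap-adjacent adenosine, had 1287 and 750 counts and a ratio of 0.569 (0.519 to 0.623). That interval overlaps the one of Mettl14, whose ratio was 0.620 (0.560 to 0.685). Trmt112, the cofactor that stabilises METTL5, had 751 and 959 counts and a ratio of 1.246 (1.13 to 1.37).

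Among 15 other METTL genes, 1 was called lower and 0 higher, with a median of -0.27. Of all measured genes 5.72% were called lower and 5.59% higher, so 1 of 15 is no result about the list. The counting interval lay below 1 for 9 of the 15 and above 1 for 4, beside 35.8% and 31.9% of all measured genes. The called gene was Mettl1, the 7-methylguanosine methyltransferase of transfer RNA, with 608 and 305 counts and a ratio of 0.489 (0.425 to 0.563). Its log2 ratio of -1.01 lies at the threshold, and the call was lost at -0.92 with total counts, -0.98 with DESeq2 size factors, -0.94 with upper quartiles and -0.95 on deposited FPKM, and at -0.96 with a pseudocount of 2 CPM. Among 7 other ALKBH genes 0 were called, with a median of -0.11. Their interval lay below 1 for 2 and above 1 for 1. Alkbh1, which acts on transfer RNA among other substrates, had 582 and 310 counts and a ratio of 0.520 (0.451 to 0.598). Alkbh3, a repair enzyme for alkylated nucleic acids, had 362 and 344 counts and a ratio of 0.927 (0.798 to 1.08). Of 12 genes of the S-adenosylmethionine cycle, which supplies the methyl donor, 10 were measured and 0 called, with a median of -0.23. The interval lay below 1 for 6 and above 1 for 4. Among all measured genes it lay below 1 for 35.8% and above 1 for 31.9%. Ahcy, which clears the by-product S-adenosylhomocysteine, had 2203 and 2593 counts and a ratio of 1.15 (1.08 to 1.22). Ahcyl1, a relative of Ahcy that binds inositol trisphosphate receptors, had 5924 and 4399 counts and a ratio of 0.725 (0.697 to 0.754).

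**Figure D5:**
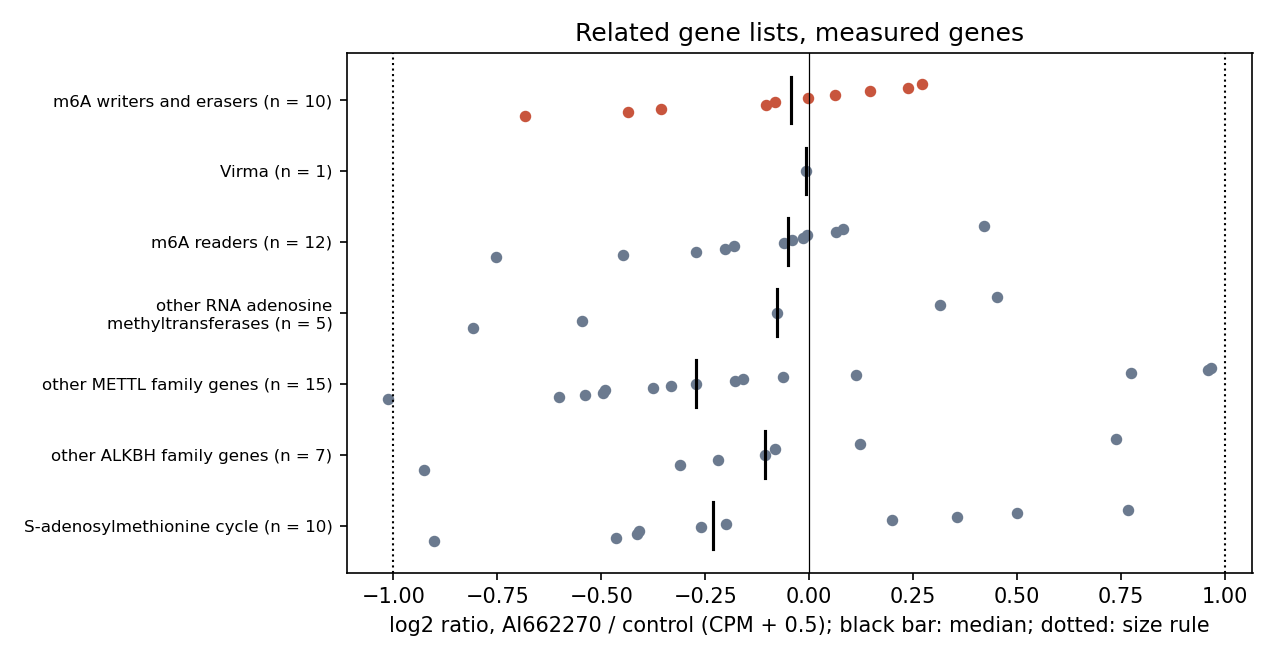
Log2 ratios (x axis, AI662270 library over control library, CPM plus 0.5) of measured genes in the set of writers and erasers (red) and in related lists (grey), with the median of each list as a black bar and the size rule dotted. The 10 members run from -0.68 to 0.27, and only Mettl1, at -1.01, passes a dotted line.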

How the data were processed

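Total RNA of 2 sublines was sequenced, 1 library each; the labels give the molecule as polyA RNA, whereas the series text names removal of ribosomal RNA. CASAVA 1.4, TopHat2 and mm10 are named in the submitters' processing notes. Which program counted reads, on which annotation, and whether by strand is not given in the sources used here. The deposited count columns hold whole reads per gene without normalization by the authors, per the file headers and values. The deposited FPKM columns are the authors' counts over gene length and over 1 divisor, 15391166, in both libraries. The signal columns are counts rescaled by the authors. The log2 fold changes and p-values, per the file headers, are the authors' own comparison of the single libraries, and served only to count genes past the adjusted threshold.

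Counts were scaled by TMM (edgeR 4.0.16, R 4.3.3), with factors of 0.967 and 1.03, over all 54713 rows, of which 181 lack an Ensembl identifier. CPM, ratios, exact Clopper-Pearson intervals (95%) and a pseudocount of 0.5 CPM were computed in Python 3.11.15 with scipy 1.17.1. No p-value was computed. The floor of 3 counts and all intervals cover counting error only. The size rule was tested on simulated data. Coordinates of all 10 members equal GENCODE M21. Members, lists and rules were chosen with earlier results of these data known. All members are named, and in each list up to 2 genes past the size rule, otherwise the 2 most abundant, as well as overlapping genes. Alternatives were other scalings (total counts, DESeq2 1.42.0 size factors, upper quartiles), pseudocounts, filters, thresholds, protein-coding genes alone, and the deposited FPKM and rescaled columns.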

Additional observations from a re-analysis of the deposited data

How the results depend on the processing

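With 1 library per group, depth limits only the counting intervals. Culture-to-culture spread is unknown, and no paired analysis was possible because each group holds 1 library. No member was called under any scaling, pseudocount or filter. All members pass the filters, which leave their ratios unchanged, so the filters could not alter a call. The rescaled columns nearly repeat the main scaling. DESeq2 size factors, 1 for both libraries, nearly repeat the FPKM columns. These settings are therefore not all separate checks. With a 1.5-fold threshold 1 member, Mettl14, was called lower, and with a 3-fold threshold none was. Across these settings the log2 ratio ran from -0.69 to -0.59 for Mettl14, -0.44 to -0.34 for Mettl3, -0.36 to -0.26 for Wtap and 0.27 to 0.37 for Alkbh5. Members with a counting interval below 1 numbered 3 throughout, and those above 1 numbered 3, or 4 with total counts or upper quartiles, when Zc3h13 joined them. Counting these intervals under other settings was added after the data were seen.

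Among all measured genes, 742 were called higher and 759 lower. The numbers higher and lower were 400 and 573 with a pseudocount of 2 CPM, 391 and 572 at a mean of at least 5 CPM, and 486 and 556 on FPKM. They were 870 and 615 with total counts, and 1049 and 906 without a filter. Thresholds of 1.5-fold and 3-fold gave 1705 and 247 higher, and 1893 and 262 lower. The median log2 ratio of -0.016 became 0.080 with total counts, 0.019 with DESeq2 size factors, 0.051 with upper quartiles, 0.016 without a filter, -0.041 at 5 CPM and 0.017 on FPKM.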

Other observations

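The table holds 8 further METTL symbols outside the lists above, of which 2 were measured. Mettl7b, a methyltransferase-like gene of the endoplasmic reticulum and lipid droplets, was picked out after its values were seen. It had 258 counts with the control virus and 33 with AI662270, or 16.97 and 2.12 CPM, and was 8.01-fold lower (5.56 to 11.9) in the AI662270 library. Mettl7b passed the size rule under every scaling, pseudocount and filter tried. The other, Mettl27, had 419 and 289 counts and a ratio of 0.673 (0.577 to 0.784), which does not pass it. Mettl7b lies on chromosome 10, where the median log2 ratio over 645 measured genes was -0.14.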
